A study of Mus musculus with 2 samples.

Results

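Expression of 9 genes of lipoprotein and cholesterol handling was compared in kidney RNA from mice on an adenine diet with and without HMPA. The genes were the apolipoproteins Apoe, Apod, Apom and Apob, lipoprotein lipase (Lpl), the cholesterol exporters Abca1 and Abcg1, the liver X receptor alpha (Nr1h3) and the lysosomal cholesterol carrier Npc2. They were chosen by symbol from the 26571 genes named on the array, with earlier results of these data known. The 9 genes were covered by 14 probes on 23 spots, and 12 of the probes passed the filter on dim spots. Each of the 9 genes kept at least 1 probe and so was among the 16698 genes measured. Apod passed through the adenine condition alone, and the other 8 genes were above background in both conditions on both arrays.

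Male CD-1 mice, 7 weeks old at the start, received AIN-93G diet for 1 week. In one group the diet held 0.2% adenine by weight, which is used to induce chronic kidney disease. In the other it held the same adenine and 2% HMPA by weight, the phenolic acid 3-(4-hydroxy-3-methoxyphenyl)propionic acid. Both groups therefore received adenine, and no group without it enters the comparison. The sample titles give an age of 12 weeks and 5 mice, without stating whether the RNA was pooled. Each of 2 arrays held both conditions, with HMPA in Cy5 (red) and adenine alone in Cy3 (green) on array 1 and the dyes swapped on array 2. The labels name no separate animals for the arrays, so they were read as 1 RNA sample per condition measured with both dye orientations. No variation between mice can be estimated, and no p-value was computed.

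Cholesterol leaves a cell when exporters in its membrane pass it to apolipoproteins. ABCA1 loads lipid-poor apolipoproteins and ABCG1 loads larger particles, and both genes are transcribed under the liver X receptors, which bind oxidised sterols. NPC2 works one step earlier and hands cholesterol released in lysosomes to NPC1. Macrophages secrete apolipoprotein E and rely on this route after taking up lipid. In the kidney, proximal tubule cells express apolipoprotein M and take up filtered lipoproteins through megalin.

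Genes were called higher or lower when their mean ratio reached 2-fold and both arrays reached 1.5-fold on the same side. This rule of size is no test. Of the 9 genes, 1 (Apom) was higher with HMPA, beside 6.64% of all measured genes. Apoe, Abcg1 and Abca1, 3 of the 9, were lower, beside 7.72% of all measured genes. The remaining 5 met neither side. The median log2 ratio of the 9 genes was −0.63, and that of all measured genes was −0.04. Over the 8 genes above background in all 4 channels, thus without Apod, the median was 0.09. The sign of the set median therefore rests on Apod. In log2 terms 5 genes lay below 0 on both arrays and 4 lay above 0 on both, and no gene changed sign between arrays.

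**Figure D1:**
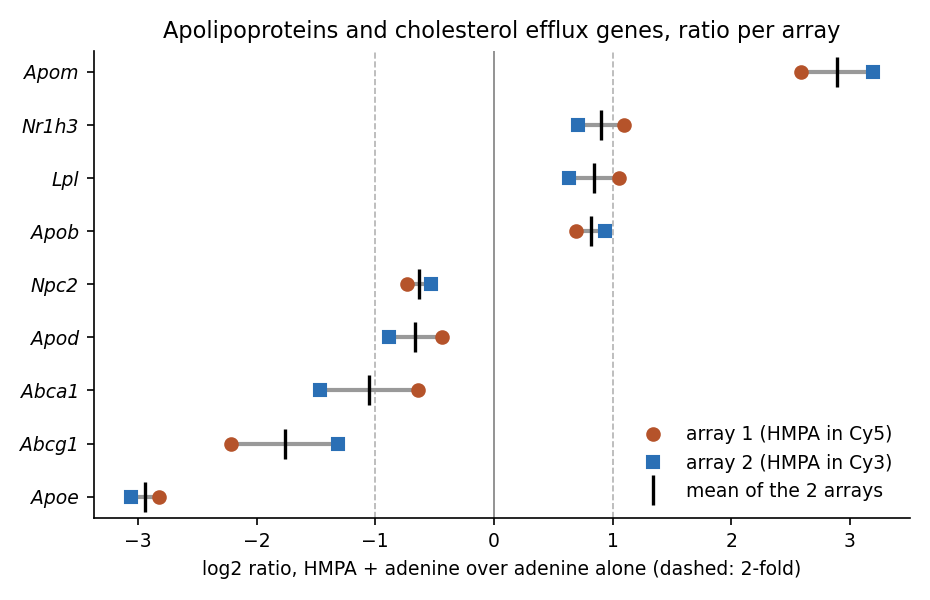
Log2 ratio of HMPA plus adenine over adenine alone for each of the 9 genes, with circles for array 1, squares for array 2 and bars for their mean. Apoe (−2.94) and Apom (2.89) stand at the ends, and the grey lines of Abcg1 and Abca1 are the longest.

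The probes of Apoe, Apom and Apod are shown, since they carry the largest decrease, the largest increase and the least certain value of the set, with positions on mouse build mm9. Each is 60 bases long and is written 5′ to 3′ in lower case.
Apoe probe, chr7:20281732-20281791, minus strand: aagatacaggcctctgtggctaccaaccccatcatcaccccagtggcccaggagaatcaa
Apom probe, chr17:35267047-35267106, minus strand: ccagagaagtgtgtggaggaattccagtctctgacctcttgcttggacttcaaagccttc
Apod probe, chr16:31300545-31303530, minus strand: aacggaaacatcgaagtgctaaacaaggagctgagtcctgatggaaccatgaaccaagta
The genomic span of the Apod probe, 2986 bases, is longer than the probe itself, so its letters come from separate stretches of the gene. The probes of Apoe and Apom each lie within a single stretch. An annotation of mm9 was not used here, so exons are not named.

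Apoe encodes apolipoprotein E, the ligand by which lipoprotein remnants enter cells through lipoprotein receptors. Its normalised intensity, which includes the added offset of 50, was 57564 with adenine alone and 8112 with HMPA on array 1. On array 2 it was 51987 with adenine alone and 6223 with HMPA. Both adenine values thus lay far above both HMPA values. The log2 ratios were −2.83 and −3.06, with a mean of −2.94 ± 0.12, where ± gives how far each array lay from the mean of the pair. This is 7.70-fold lower with HMPA. Only 0.18% of all measured genes had a ratio as low or lower, which put Apoe at rank 30 of 16698.

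The Apoe probe was printed 10 times on each array, so the ratio could be read many times within an array. On array 1 the 9 reliable spots ran from −3.06 to −2.31 with an SD of 0.23. On array 2 the 8 reliable spots ran from −3.33 to −2.91 with an SD of 0.14. No spot approached 0 on either array. These SDs describe spots on a slide and not mice.

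Apoe lies in a cluster with Apoc1, Apoc4 and Apoc2 on chromosome 7, in the gene order of RefSeq. Apoc1, an inhibitor of lipoprotein uptake and of lipoprotein lipase, had a log2 ratio of −1.18 ± 0.38 and was lower by the rule, though not on array 1 alone (−0.80). Apoc2, the activator of lipoprotein lipase, was −1.94 ± 0.0025 and was lower. Apoc4 was −0.22 ± 0.07, with signal above background in the adenine condition only. Tomm40, the mitochondrial import pore on the other side of Apoe, was 0.38 ± 0.04, so the decrease did not extend to it. The next genes were Nectin2 at −0.81 ± 0.13, Bcam at −1.58 ± 0.43, which met the rule as lower, and Cblc at 0.53 ± 0.05. These neighbours were chosen for their position, after earlier results were known.

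Markers of macrophages moved with Apoe. Of 20 macrophage markers measured, 19 were lower with HMPA and none was higher; their median log2 ratio was −2.16. Their summed intensity was between 104890 and 108557 with adenine alone and between 17669 and 19526 with HMPA. Apoe was lower than 19 of these 20 markers, and only the lipid receptor Trem2 (−3.20 ± 0.11) lay below it. The gene nearest to Apoe over the pair of array ratios was the macrophage lysozyme Lyz2 (−2.91), at a distance of 0.05 log2 units, among 13251 genes searched. Next came Igfbp2, an insulin-like growth factor binding protein, at 0.08 and the heparan sulfate sulfatase Sulf1 at 0.12. Fibroblast and pericyte markers were also lower, 10 of 12, with a median of −1.71. Whether the Apoe ratio follows the share of macrophages was not tested. In whole-kidney RNA, fewer cells of a type and less RNA per cell cannot be told apart.

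Apom encodes apolipoprotein M, which carries sphingosine 1-phosphate on HDL. Its intensity was 759 with adenine alone and 4562 with HMPA on array 1. On array 2 it was 634 with adenine alone and 5800 with HMPA. Both HMPA values exceeded both adenine values several times over. Array 1 gave a log2 ratio of 2.59 and array 2 one of 3.19, with a mean of 2.89 ± 0.30, or 7.41-fold higher with HMPA. Of all measured genes, 0.377% had a ratio as high or higher, and Apom ranked 63 from the top.

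Markers of the proximal tubule and of other nephron segments moved in the same direction as Apom. Of 20 proximal tubule markers measured, 19 were higher with HMPA and none was lower; their median log2 ratio was 2.61. Their summed intensity was between 63199 and 81006 with adenine alone and between 460644 and 472283 with HMPA. Apom lay above 14 of the 20 and below 6, among them the amino acid transporters Slc7a13 (5.03) and Slc6a19 (3.97) and the androgen-regulated kidney protein Kap (3.90). Of 16 markers of the loop of Henle, distal tubule, collecting duct and podocyte, 8 were higher and none was lower; the median was 0.93. Egf (3.60) and Pvalb (3.00), of the distal tubule, lay above Apom. The genes nearest to Apom over both arrays were the cytochrome P450 Cyp2e1 at a distance of 0.03, the retinol dehydrogenase Rdh16f2 at 0.15 and the lipid-binding protein Sec14l3 at 0.16. The mean of Sec14l3 over all its probes was 1.58 in place of 2.96. The part of tubule cell content in the Apom ratio was not tested.

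Genes that handle the cargo of apolipoprotein M or are known to act on its transcription were listed separately. Of 14 such genes 11 were measured. The rule called 4 higher and 3 lower, and their median was −0.37, or 0.04 without the filter on dim probes. The lysolipid transporter Mfsd2a was 3.10 ± 0.08 and the hepatocyte nuclear factor Hnf4a was 1.90 ± 0.16. The mean over all kept probes of Hnf4a was 1.20. The sphingosine 1-phosphate exporter Spns2 was −2.14 ± 0.26, and Sphk1, the kinase that makes sphingosine 1-phosphate, was −2.10 ± 0.53. Apom was thus higher while a kinase and an exporter of its cargo were lower. The other kinase, Sphk2, was 0.15 ± 0.01 and met neither side of the rule. Sgpp1, a phosphatase of that cargo, was 1.56 ± 0.15 and higher, so the list split in both directions. S1pr1, a receptor for that cargo on endothelial cells, was −0.37 ± 0.09 and met neither side of the rule.

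**Figure D2:**
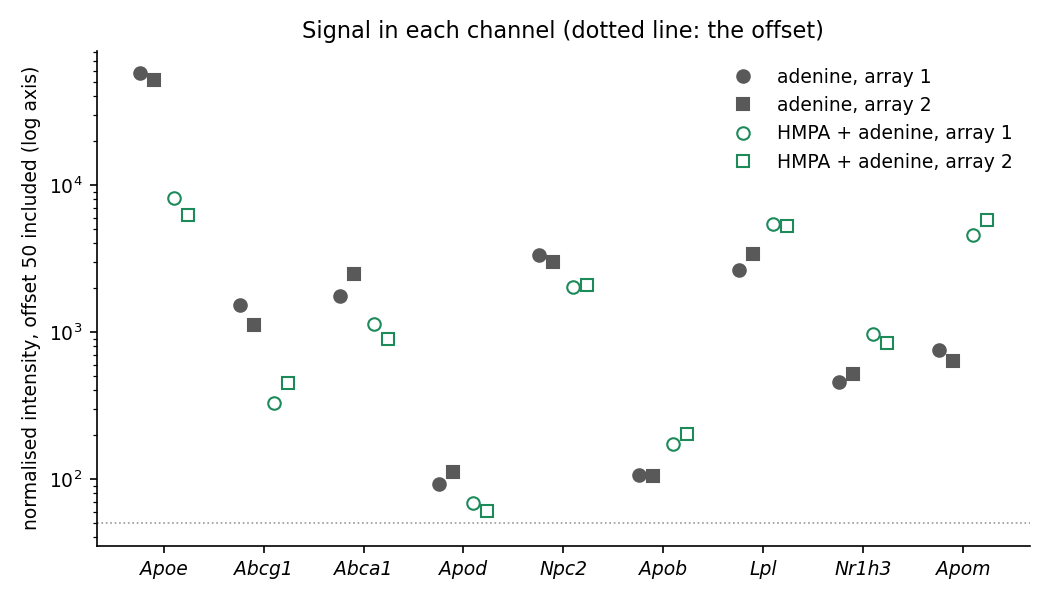
Normalised intensity of each gene's probe in the 4 channels on a log axis, with filled grey symbols for adenine alone, open green symbols for HMPA plus adenine, circles for array 1 and squares for array 2. Within each gene the adenine and HMPA symbols do not overlap, and Apod (60.8 with HMPA on array 2) lies closest to the dotted line at the offset of 50; heights of different genes are not comparable, since probes differ.

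Apod encodes apolipoprotein D, a lipocalin that binds arachidonic acid and steroid hormones. Its intensity was 92.8 with adenine alone and 68.5 with HMPA on array 1, and 112 and 60.8 on array 2. The log2 ratios were −0.44 and −0.89, with a mean of −0.66 ± 0.22. Before background correction the spot read 81.4 with adenine alone on array 1, over a local background of 24, and 26.6 with HMPA, over a background of 22. On array 2 it read 91.5 over 24 with adenine alone and 41.1 over 25.5 with HMPA. With HMPA the probe was not well above background on either array, so the ratio is a bound. In the mean of both arrays Apod was at least 1.58-fold lower with the offset of 50. The arrays taken singly gave 1.35-fold and 1.85-fold. The scanner software's own ratio, which adds no offset, had a mean of −2.66, and an offset of 16 in place of 50 gave −1.19. Both of these met the rule as lower. The direction was the same throughout, while the size of the Apod ratio was set by the treatment of background.

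Apob encodes the structural protein of chylomicrons, VLDL and LDL, made mainly in liver and intestine. It was the other gene of low signal, with 107 for adenine alone and 173 for HMPA on array 1 and with 105 and 201 on array 2. The log2 ratios were 0.70 and 0.94, with a mean of 0.82 ± 0.12, or 1.76-fold higher with HMPA, short of the rule. Apob had 5 probes, of which 3 were kept. These gave mean log2 ratios of 0.17, 0.70 and 0.82, all above 0, and their mean was 0.56. The pair of probes not above background gave 0.01 and 0.09. With an offset of 16 the chosen probe gave 1.09, without background correction 1.02, and in the scanner software's ratio 1.47, and each of these met the rule as higher. Of 12 hepatocyte markers, 9 were measured, of which only Alb met the rule, as higher and with signal above background in only some channels. Alb did not meet it with median centring or on array 1 alone (0.92 in each). In the scanner software's ratio Alb was 4.26, 5 of the 9 markers were higher and their median was 1.08 in place of 0.18. Ahsg, Apoa1 and Cps1 were not above background. Sar1b, needed for export of Apob particles, was 0.97 ± 0.14. Mttp, the microsomal protein that loads lipid onto Apob, was 1.17 ± 0.05 and met the rule as higher, but was above background in only some of the 4 channels.

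**Figure D3:**
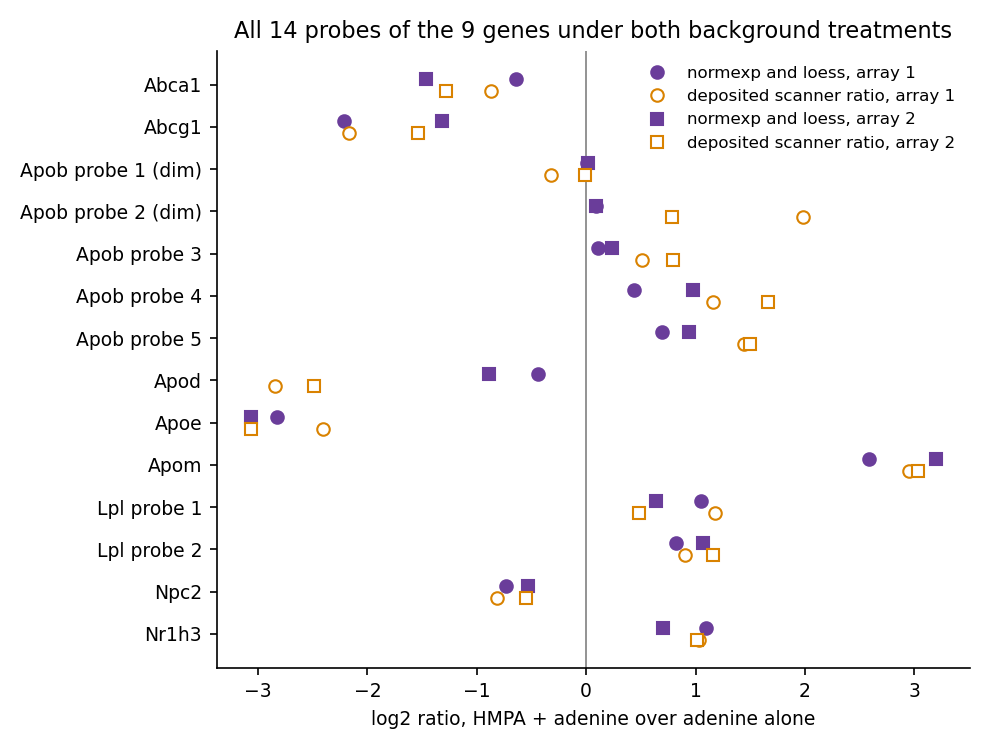
Log2 ratio of HMPA plus adenine over adenine alone for all 14 probes, with filled purple symbols for the background correction and loess used in the text, open orange symbols for the deposited scanner ratio, circles for array 1 and squares for array 2. The shifts between colours are widest for the low-signal probes of Apod (−0.66 against −2.66 in the mean) and Apob, and narrow for Npc2 (−0.63 against −0.68).

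Among 20 other apolipoproteins, 13 were measured, 2 were higher and 5 lower, and the median log2 ratio was −0.59. Apoh, the phospholipid-binding beta-2-glycoprotein, was 3.21 ± 0.17, above Apom. The mitochondrial cristae protein Apoo was 1.55 ± 0.02. Clusterin (Clu), a secreted chaperone induced in injured tubules, was −2.09 ± 0.15. The acute-phase HDL proteins Saa3 (−1.53 ± 0.29) and Saa1 (−1.01 ± 0.15) were the remaining pair of lower genes beside Apoc1 and Apoc2. The main HDL apolipoprotein Apoa1 and its cluster neighbours Apoa4 and Apoa5 were not above background, whereas Apoc3 of the same cluster was 0.68 ± 0.14. On array 1 alone 3 of the list were lower, without Apoc1 and Saa1 (−0.85). In the scanner software's ratio 4 were higher and 8 lower and the median was −1.33, and without the filter on dim probes the median was −0.02.

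Lpl encodes the lipase that releases fatty acids from circulating triglyceride. Its intensity was 2623 with adenine alone and 5435 with HMPA on array 1, and 3370 and 5236 on array 2. Both HMPA values lay above both adenine values. In log2 terms the ratios were 1.05 and 0.64, with a mean of 0.84 ± 0.21, or 1.79-fold higher with HMPA, which did not meet the rule. A second Lpl probe gave 0.82 and 1.07, with a mean of 0.94, so both probes were near 2-fold but in the opposite order of arrays. Some markers of adipocytes, a cell type rich in Lpl, moved the other way. Of 13 measured, 5 were lower, 8 met neither side and none was higher. The median was −0.90, or −0.60 on array 1 alone and −0.59 without the filter on dim probes. The lowest was the adipsin gene Cfd (−4.84 ± 0.01).

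Genes that act with lipoprotein lipase or in particle assembly gave a median of 0.08 over 16 measured (−0.16 with median centring). The rule called 2 higher and 1 lower. On array 2 alone 2 were lower and the median was −0.02. Gpihbp1, which holds the lipase on capillary endothelium, was −0.05 ± 0.11. The lipase inhibitor Angptl4 was −0.85 ± 0.62, with the arrays far apart. Apobec1, the enzyme that edits the Apob transcript, was −2.08 ± 0.28, and −1.33 in the mean over its kept probes. Endothelial markers stayed close to 0, with 0 of 12 higher or lower and a median of −0.12.

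Abcg1 and Abca1, the exporters, were both lower with HMPA. Abcg1 intensity was 1519 with adenine alone and 327 with HMPA on array 1, and 1119 and 450 on array 2. Its log2 ratios were −2.21 and −1.31, with a mean of −1.76 ± 0.45, or 3.40-fold lower. Abca1 intensity was 1768 with adenine alone and 1134 with HMPA on array 1, and 2463 and 892 on array 2. Its log2 ratios were −0.64 and −1.46, with a mean of −1.05 ± 0.41, or 2.07-fold lower. Adenine exceeded HMPA on both arrays for both genes, but the sizes differed.

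The arrays ranked the exporters differently. On array 1 Abcg1 was lower than Abca1 by 1.57 log2 units, and on array 2 Abca1 was lower than Abcg1 by 0.15. Of all measured genes only 2.21% had arrays as far from their mean as Abcg1, and 3.33% as far as Abca1. On array 1 alone, at −0.64, Abca1 did not meet the rule. Abcg1 kept its side of the rule in each of 10 alternatives, between −2.21 and −1.31. Of the 20 macrophage markers 13 were lower than Abcg1 and 19 were lower than Abca1. The part of macrophage content in both exporter ratios was not tested.

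The other exporters and efflux enzymes did not follow them as a group. Of 15 measured, the rule called 2 higher and 2 lower, and the median was 0.01 (−0.06 with median centring). The cholesterol 25-hydroxylase Ch25h was −2.55 ± 0.08, and the HDL receptor Scarb1 was −1.0 ± 0.14 but did not meet the rule on array 2 alone (−0.86). The oxysterol hydroxylase Cyp7b1 was 2.73 ± 0.06 and the urate exporter Abcg2 was 2.00 ± 0.07. Abca7, the closest relative of Abca1, was −0.28 ± 0.06. Abcg5 and Abcg8, the sterol exporters of liver and gut, were not above background.

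Nr1h3 encodes liver X receptor alpha, the sterol-sensing factor for the exporters and Apoe. Its intensity was 455 with adenine alone and 971 with HMPA on array 1, and 519 and 847 on array 2. The log2 ratios were 1.09 and 0.71, with a mean of 0.90 ± 0.19, or 1.87-fold higher with HMPA, short of the rule. It met the rule on array 1 alone (1.09) and in the scanner software's ratio (1.02). Nr1h3 therefore lay above 0 on both arrays while Apoe, Abcg1 and Abca1, which it is known to activate, lay below 0 on both. Lpl, another listed target among the 9 genes, lay above 0 on both, at 1.05 and 0.64. The second liver X receptor, Nr1h2, was 0.18 ± 0.39.

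Among 25 partners and targets of the liver X receptors, 1 was higher and 8 were lower; the median was −0.15. On array 1 alone 3 were higher and 5 lower, and on array 2 alone 2 were higher and 8 lower and the median was −0.45. Without the 5 of the 9 genes that belong to this list, 1 of 20 was higher and 5 were lower; the median was −0.09. Arl4c, a small GTPase gene activated by the receptors, was −2.49 ± 0.30, and −1.69 in the mean over its kept probes. Apoc1 and Apoc2 were the lower genes given above with the Apoe cluster. The sphingomyelinase-like Smpdl3a, also a known target, was 1.87 ± 0.28. The lipogenic targets Srebf1 at −0.03 ± 0.26 and Fasn at −0.15 ± 0.30 met neither side. The list thus held ratios from −2.94 to 1.87, and more of its genes were called lower than higher. Of all measured genes 7.72% were lower and 6.64% higher.

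Promoter letters were searched for the element these receptors bind. RefSeq windows of 300 bases on build GRCm38.p6, from 250 before to 50 after a start, were given for 7 of the 9 genes. Abcg1 and Lpl had none in the table. The site AGGTCA was in no window of the 9 genes, beside 16.3% of 32851 windows, on either strand. The full element of this site repeated after a gap of 4 bases, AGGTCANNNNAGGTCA, was in none of them either, beside 0.0152%. A form taken from the known Abca1 element, GGTTANNNNNGGTCA, was in the Abca1 window alone among them, beside 0.0487%. Its first site differs from AGGTCA, so it is not a looser version of the full element. Because the form came from Abca1, the share of all windows gives no weight to its Abca1 match. The stretch before the Abca1 start is shown because it holds this match, in capitals on the opposite strand, between 67 and 53 bases upstream.
Abca1 promoter, GRCm38.p6 chr4:53159896-53159995, minus strand: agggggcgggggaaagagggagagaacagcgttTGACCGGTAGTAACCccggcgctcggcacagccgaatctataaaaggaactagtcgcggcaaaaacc
A TATA box, TATAAA, follows it 29 bases before the start. This motif was in 13.6% of all windows and, of the 9 genes, in Abca1, Apob and Apoe. A match is a description of letters and says nothing about binding in these kidneys.

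Npc2 lay below 0 on both arrays. Its intensity was 3336 with adenine alone and 2013 with HMPA on array 1, and 2997 and 2077 on array 2. Both adenine values were above both HMPA values. Its log2 ratios were −0.73 and −0.53, with a mean of −0.63 ± 0.10, or 1.55-fold lower. This met neither side of the rule in the main setting or in any of 10 alternatives. NPC1, the membrane partner of NPC2, had a log2 ratio of 0.29 ± 0.27 for its gene Npc1, and the lysosomal cholesterol esterase gene Lipa was 0.65 ± 0.39.

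Genes of endosomal and intracellular cholesterol transport had a median of 0.27 over 22 measured, with 4 higher and none lower (with median centring 2 higher, 1 lower and a median of 0.0039). The sterol carrier Scp2 was 1.69 ± 0.09. The oxysterol-binding proteins Osbpl1a, Osbpl8 and Osbpl9 were 1.69 ± 0.25, 1.20 ± 0.20 and 1.05 ± 0.11. Osbpl1a did not meet the rule in the mean over its probes (0.91), and Osbpl8 (0.88) and Osbpl9 (0.87) did not with median centring. Among cholesterol synthesis genes the rule called 5 of 23 higher and none lower, and their median was 0.45 (0.23 with median centring). In the mean over kept probes 3 of the 23 were higher. Beside both lists stand the shares of all measured genes, 6.64% higher and 7.72% lower. Cyp51 was 2.01 ± 0.19, Nsdhl 1.54 ± 0.04, Hmgcs1 1.32 ± 0.28 and Idi1 1.25 ± 0.005. In the mean over their kept probes Hmgcs1 (0.91) and Idi1 (0.89) fell short of the rule.

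Receptors for lipoproteins split in both directions. The rule called 7 of 25 higher and 6 lower, and their median was −0.24. With median centring 4 were higher and 8 lower and the median was −0.58, and in the scanner software's ratio it was −0.55. Megalin (Lrp2), a receptor for Apom and Apoe in the proximal tubule, was 2.73 ± 0.07, and its partner cubilin (Cubn) was 2.20 ± 0.02. The fatty acid and oxidised lipoprotein receptor Cd36 was 2.07 ± 0.25. Trem2, given above, and the scavenger receptor Stab1 (−2.12 ± 0.09) were lower. In the mean over kept probes Lrp2 was 2.01, Trem2 −2.38 and Stab1 −1.22. The scavenger receptor Olr1 was at least 2.46-fold lower in the mean of both arrays, as it was not well above background with HMPA.

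**Figure D4:**
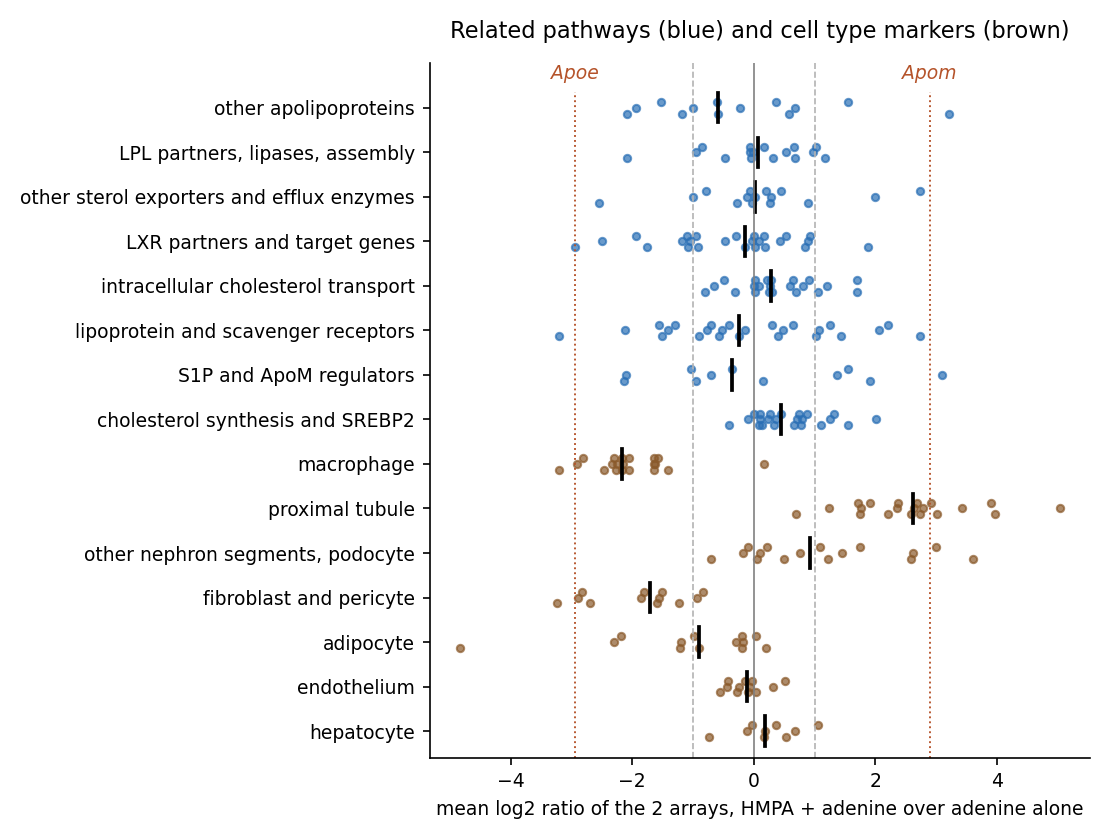
Mean log2 ratio of HMPA plus adenine over adenine alone for each measured gene of 8 related pathways (blue) and 7 sets of cell type markers (brown), with a black bar at each median and dotted lines at Apoe and Apom. Macrophage markers centre at −2.16 and proximal tubule markers at 2.61, on the sides of Apoe and Apom, while the pathway medians lie between −0.59 and 0.45.

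From lowest to highest the 9 genes were ordered Apoe, Abcg1, Abca1, Apod, Npc2, Apob, Lpl, Nr1h3 and Apom, over a span of 5.83 log2 units. Of the 8 pairs of neighbours in this order, 5 had overlapping array values, and their order is not resolved. These were Abcg1 and Abca1, Abca1 and Apod, Apod and Npc2, Apob and Lpl, and Lpl and Nr1h3. Within each array Abca1 lay below Apod, by 0.20 and 0.58, and Lpl below Nr1h3, by 0.04 and 0.07. The other 3 pairs did not overlap. Apoe was 1.18 below Abcg1, Npc2 was 1.44 below Apob, and Nr1h3 was 1.99 below Apom. The place of Apod rests on the offset of 50, since its ratio is a bound. In the scanner software's ratio Apod had −2.84 and −2.49, which overlapped the −2.40 and −3.06 of Apoe.

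**Figure D5:**
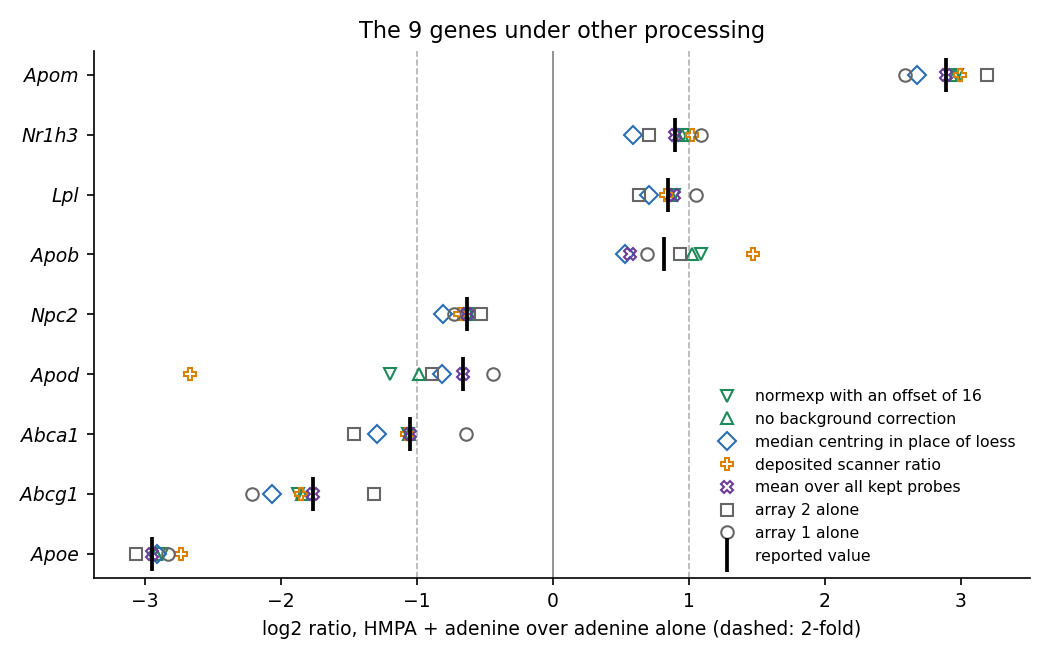
Log2 ratio of HMPA plus adenine over adenine alone for the 9 genes under 7 other processing choices (symbols) beside the reported value (black bar), with dashed lines at 2-fold. Apod spreads most, from −2.66 to −0.44, and every symbol stays on the side of 0 of its reported value; the choices that change only the filter on dim probes are not drawn.

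On the arrays as a whole, 57.9 to 67.9% of 43379 non-control spots were well above background, depending on array and dye, and none was saturated. Across the 16698 measured genes, 1109 were higher and 1289 lower by the rule. With array 1 and array 2 turned so that dye and not diet was compared, the rule called 0 genes. Centring each array on its median in place of loess shifted the median of all genes by −0.18 and gave 749 higher and 1973 lower. Array 1 and array 2 correlated with r = 0.889 over genes; genes are not independent of one another. All 20 proximal tubule and all 16 other nephron and podocyte markers were above background in at least 1 condition. So were all 20 macrophage markers, all 12 endothelial markers and 9 of 12 hepatocyte markers. Detection alone therefore cannot check the kidney label.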

How the data were processed

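Kidney RNA of 1 sample per condition was hybridised on 2 dual-colour Agilent arrays with swapped dyes. Per the file headers, spots were quantified by the authors with Feature Extraction 12.2.0.7 (9.5 per the submitters' processing notes). The deposited intensity columns hold mean spot and median local background intensities without normalization. The deposited ratio and the deposited value table are log10 of red over green after the software had subtracted background and normalized the dyes. The deposited p-value and ratio error come from its error model for a spot, per the file headers, and were not used for calls.

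Background was corrected with limma 3.58.1 in R 4.3.3 (normexp, offset 50). Control and unreliable spots had weight 0, ratios were normalised by loess, and channel levels by Aquantile. Every ratio was expressed as HMPA over adenine, and repeat spots were averaged. A probe was kept where both arrays showed it well above background in at least 1 shared condition (25226 of 41174). A gene was read from its brightest kept probe. RefSeq accessions named 21442 kept probes, symbols 1942 and older symbols 8, and 1834 kept the name on file. "At least" marks a probe not well above background in a condition, set against the higher of its own signal and the lowest detected one. Python 3.11.15 with pandas 2.3.3, numpy 2.4.6 and matplotlib 3.10.9 did the rest. The steps were tested on simulated data. The rule called 9 of 66 probes with a true log2 ratio of 1, 60 of 67 with 2 and 65 of 65 with 3. It called 0 of 40780 unchanged probes. The simulated noise was independent between spots and of a fixed size small beside the rule, so this 0 largely follows from the setting. Changed probes were drawn only from those brighter than the median. These counts are therefore not error rates for the measured genes. Median measured log2 ratios were 0.75, 1.71 and 2.43 for true sizes of 1, 2 and 3. In this simulation ratios were thus compressed, and most 2-fold changes fell short of the rule.

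The 9 genes, the 15 gene lists and the alternatives were chosen with earlier results of these data known. All 9 genes were reported. For each list up to 4 genes meeting the rule and above background in all 4 channels were named by size of ratio, or up to 2 where none did, and 3 nearest genes for Apoe and Apom. Genes named beyond this rule, such as the neighbours of Apoe, were chosen after their values were seen. A few genes of the lists are not reported here by name. Alternatives changed the offset, background correction, centring, dim-probe filter, probe summary and array, or used the deposited ratio.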

Additional observations from a re-analysis of the deposited data

How the results depend on the processing

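The 9 genes gave 89 values under up to 10 alternatives each; 0 had the opposite sign, and 77 kept their side of the rule. Apoe stayed between −3.06 and −2.73 and Apom between 2.59 and 3.19. The count of the 9 genes called higher, 1 as reported, was 2 with an offset of 16 and 2 without background correction, where Apob was added. It was 3 in the deposited ratio, where Apob and Nr1h3 were added, and ranged from 1 to 3 when an array was left out. The count called lower ranged from 2 to 4. Over all measured genes, median centring gave 1973 lower, and the deposited ratio gave 2043 higher and 2461 lower. Leaving out an array gave 1154 to 1253 higher and 1280 to 1484 lower. Of 135 list medians under alternatives, 5 had the opposite sign, all from lists whose median was within 0.4 of 0. The cause of these shifts was not tested, apart from the larger ratios at low signal that follow from adding less offset. Each ratio pairs the conditions within an array, but with 1 RNA sample per condition there were no pairs of animals to analyse. Signal near background limits Apod and Apob, and the number of arrays limits every value.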
